A study of Mus musculus with 10 samples.

Results

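The genes described here encode the chains of the receptors for the cytokines IL-2 and IL-15: Il2ra, Il15ra, Il2rb and Il2rg. They are 4 of the 21887 protein-coding genes considered in assigning binding sites of p65 (RelA), a subunit of the transcription factor NF-kB. p65 binding was mapped by ChIP-seq, in which DNA fragments pulled down with an antibody are sequenced, and the authors' peak lists hold 1 entry per peak summit. An entry was counted for a gene when its summit lay inside the gene, or within 50 kb of it with no other protein-coding gene nearer. By this rule 37 of the 26132 entries in the 4 lists belonged to the receptor chain genes, and 29 of the 37 to Il2ra. The genes were chosen by name, but with earlier results of these data known.

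The cells were regulatory T cells (Treg), which restrain immune responses, and conventional T cells (Tconv), taken from spleens and lymph nodes of C57BL/6 mice. Stimulated Treg were cultured for 3 h with plate-bound anti-CD3, which engages the T cell receptor, soluble anti-CD28, which engages a co-receptor, and IL-2 at 10 ng/ml. Unstimulated Treg came without this treatment. Stimulated Tconv had been treated as the stimulated Treg were, but with IL-2 at 2 ng/ml, and unstimulated Tconv again came without the treatment. How many mice were used, how the cells were sorted, and whether unstimulated cells were cultured or given IL-2 is not stated in the sources used here. IL-2 dose and cell type therefore cannot be told apart in the stimulated cells, nor stimulation and culture within a cell type. Each group had 2 libraries, and 2 further libraries held input chromatin mixed from all the cells. The lists give peaks and no expression values, so the cell types are used here as labelled.

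Because the authors called each group's peaks from its pooled libraries, replicate spread is unknown and no difference between lists was tested. The lists held 13078 entries in stimulated Treg, 3442 in unstimulated Treg, 6480 in stimulated Tconv, with 3132 in unstimulated Tconv. The −log10 p that the authors' caller gave their weakest entries was 26.6 in stimulated Treg, 15.1 in unstimulated Treg, 38.1 in stimulated Tconv, with 13.3 in unstimulated Tconv. A site can thus be missing from 1 list at a strength that another list accepts, and the depth of the libraries is unknown. Fold enrichment below is the authors' value for a summit over its local background, and it ranks summits within a list. Values from different lists stand side by side without a ratio, because each list was called on its own.

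The high-affinity IL-2 receptor joins the alpha chain CD25, encoded by Il2ra, with the beta chain encoded by Il2rb and the common gamma chain encoded by Il2rg. The beta and gamma chains carry the signal, through the kinases JAK1 and JAK3 to the transcription factor STAT5. The alpha chain raises the affinity for IL-2. The IL-15 receptor uses the same beta and gamma chains with its own alpha chain, encoded by Il15ra, which can present IL-15 to neighbouring cells. Treg carry CD25 at rest and depend on IL-2 from other cells, while conventional T cells raise CD25 after activation. NF-kB proteins bind DNA sequences called kB sites, and the promoter of Il2ra is a textbook example of a gene start with such a site.

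The windows around the starts of Il2ra and Il2rg are shown because summits fell inside them. Each runs from 250 bases before the start to 50 after it, is written 5′ to 3′ on the strand of the gene, and comes from RefSeq for build GRCm38.p6, whose coordinates are those of mm10. Windows were matched for 3 of the 4 genes: Il2ra, Il15ra and Il2rg. In the Il2ra window, capitals mark the kB-like letters. In the Il2rg window, which held no kB-like letters, capitals run from the first to the last of the strongest summits of the 4 lists.
Il2ra, chr2:11642542-11642841, plus strand: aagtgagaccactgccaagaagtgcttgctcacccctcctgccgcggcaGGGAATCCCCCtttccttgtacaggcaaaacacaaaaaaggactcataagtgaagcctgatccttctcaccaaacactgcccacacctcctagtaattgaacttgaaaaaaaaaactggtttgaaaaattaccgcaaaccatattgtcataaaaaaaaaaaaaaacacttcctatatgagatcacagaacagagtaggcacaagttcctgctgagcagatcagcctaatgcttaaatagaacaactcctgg
Il2rg, chrX:101268206-101268505, minus strand: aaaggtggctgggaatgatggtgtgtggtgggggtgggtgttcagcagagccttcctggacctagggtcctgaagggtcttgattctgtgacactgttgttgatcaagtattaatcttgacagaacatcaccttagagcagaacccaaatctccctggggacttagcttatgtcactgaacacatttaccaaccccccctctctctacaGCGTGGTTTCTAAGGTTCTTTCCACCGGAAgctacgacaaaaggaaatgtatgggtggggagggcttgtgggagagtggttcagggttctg

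Each window was searched on both strands for exact matches to 3 forms that resemble kB sites. The loose form is GGG, then 5 bases of any kind, then CC. The tight forms are GGGNNTTCC and the same with 3 free bases in place of NN. The windows were also searched for TTCNNNGAA, which resembles a STAT site, and TGANTCA, which resembles an AP-1 site. The capitals in the Il2ra window match all 3 kB-like forms at overlapping positions, so they are 1 place and not several. This place lay 201 to 191 bp before the gene start. Its centre was 100 bp from the stimulated Treg summit and 57 bp from the stimulated Tconv summit, measured on the longer tight form. GGGNNTTCC was found in 6.30% and the longer tight form in 5.76% of 21263 windows of protein-coding genes, whereas the loose form was found in 57.0%. The Il2rg window matched none of the 5 forms. The Il15ra windows, 2 in number for its alternative starts, held 1 match to the loose form and 1 to TGANTCA. TTCNNNGAA (in 7.69% of windows) was found in none of these windows, and TGANTCA (in 6.99%) in none of Il2ra or Il2rg. A match is a description of letters and does not show that a factor bound there.

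Il2ra held most of the binding. It lies on chromosome 2 from 11642792 to 11693194 of mm10 on the plus strand, a body of 50.4 kb. It had 20 entries in stimulated Treg, 1 in unstimulated Treg, 8 in stimulated Tconv, with 0 in unstimulated Tconv. In stimulated Treg, 15 protein-coding genes had more entries, and 17 of the 21887 genes (0.0777%), Il2ra included, had at least 20. All 17 were at least as long as Il2ra, among 4913 genes of that length or more. In stimulated Tconv, 48 genes (0.219%), Il2ra included, had at least 8. A gene had at least 1 entry in 25.4% of cases in stimulated Treg, 13.5% in unstimulated Treg, 16.6% in stimulated Tconv, with 12.6% in unstimulated Tconv. The combination seen at Il2ra, with an entry in both stimulated lists and in unstimulated Treg but not in unstimulated Tconv, was found at 1.48% of genes.

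**Figure D1:**
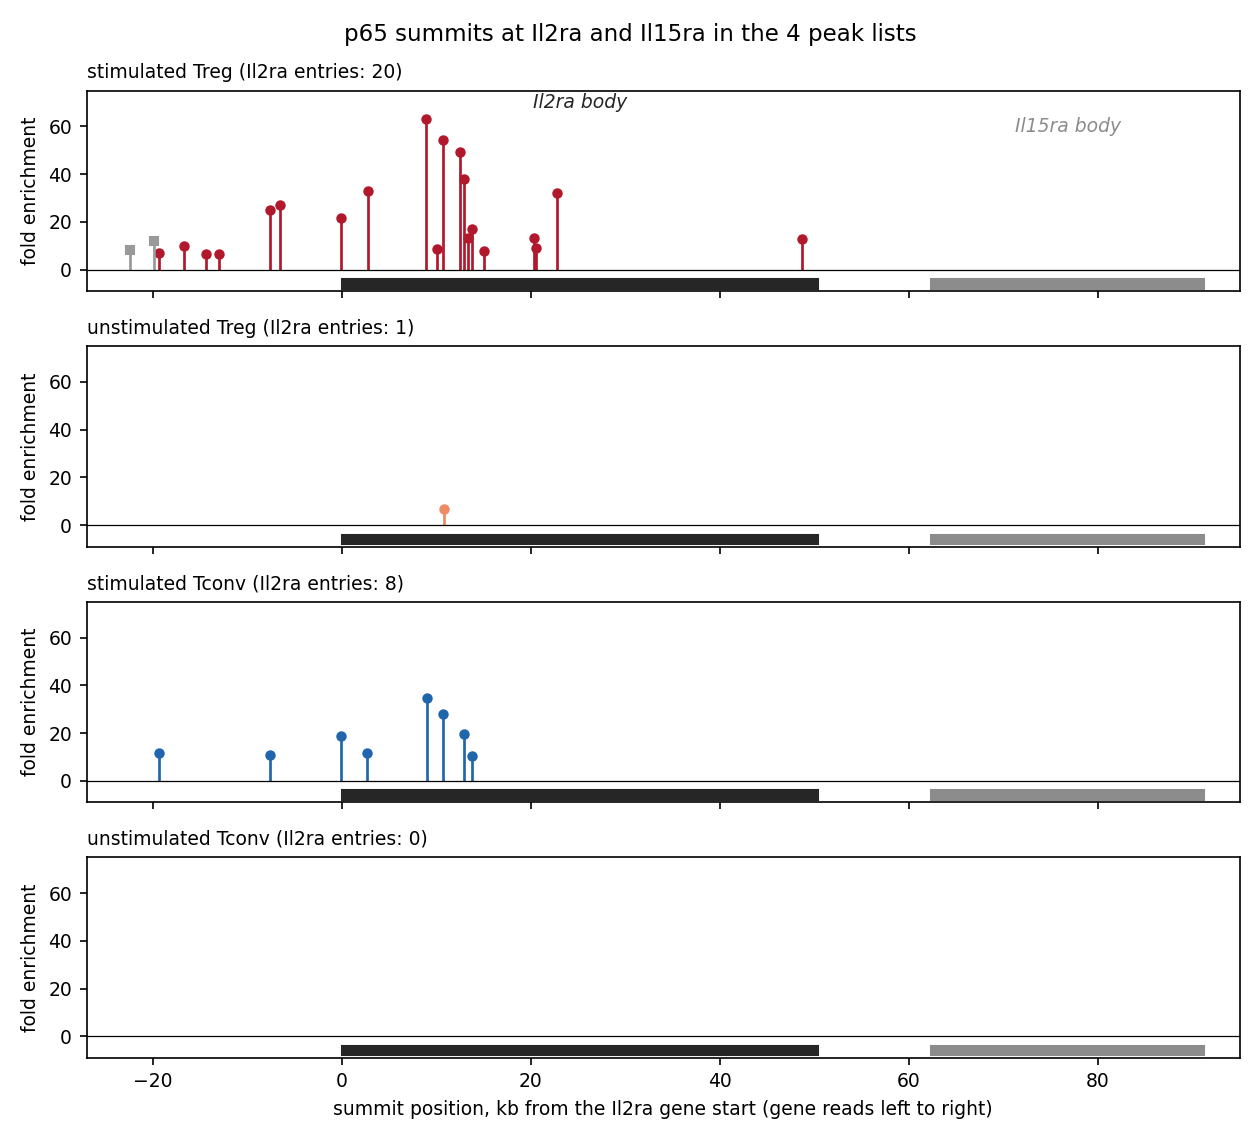
Fold enrichment (vertical axis, the authors' values) of each p65 summit against its distance from the Il2ra start in kb (horizontal axis), with 1 panel per list. Dark and light bars are the bodies of Il2ra and Il15ra, and grey squares are summits nearer to Rbm17. The 20 Il2ra summits in stimulated Treg run from 19.4 kb before the start to 48.7 kb after it, the 8 in stimulated Tconv end 13.7 kb after it, and Il15ra is empty in all 4 lists.

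The strongest binding at Il2ra lay inside the gene, 8 to 16 kb from its start. This stretch held 8 of the 20 summits in stimulated Treg and 4 of the 8 in stimulated Tconv. Its leading summit, 8.95 kb after the start, had 62.9-fold enrichment in stimulated Treg and lay in a region from 11650884 to 11654118. By −log10 p (586.4) it was within the upper 1.06% of that list. The stimulated Tconv summit was 9 bp away, with 34.8-fold enrichment and a −log10 p of 265.1, within the upper 3.90% of its own list. The next summit, 10.7 kb after the start, had 54.4-fold enrichment in stimulated Treg and 28.1-fold in stimulated Tconv, 4 bp apart. Inside the neighbouring region from 11654297 to 11658357, stimulated Treg had 5 summits. Of these, the summit at 12.5 kb had 49.3-fold and the one at 13.0 kb had 37.8-fold enrichment. The summits at 13.3, 13.8 and 15.04 kb had 13.3-fold, 16.8-fold and 7.80-fold enrichment. The overlapping stimulated Tconv region held 2 summits, at 12.9 kb with 19.4-fold and at 13.7 kb with 10.4-fold enrichment. A weaker stimulated Treg summit at 10.1 kb, between the leading pair, had 8.57-fold enrichment.

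The sole unstimulated entry at Il2ra sat in the same stretch. It was found in unstimulated Treg, 10.8 kb after the start, in a narrow region of 386 bp from 11653341 to 11653726. Its fold enrichment was 6.72 and its −log10 p 25.4, which placed it at 64.1% of its list when ranked from the strongest. The summit lay 67 bp from the stimulated Treg summit at 10.7 kb and 63 bp from the stimulated Tconv one. Unstimulated Tconv had no entry there, although that list accepted entries down to a −log10 p of 13.3. Raising every list to the common limit of 38.1 removed the unstimulated Treg entry as well. An entry in unstimulated Treg and none in unstimulated Tconv was found at 2.61% of genes.

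At the start of the gene, a summit 96 bp before it had 21.7-fold enrichment in stimulated Treg. The stimulated Tconv summit lay 139 bp before the start with 18.7-fold enrichment. Both fell in the window printed above, on the gene side of the kB-like letters. Of the Il2ra entries, this was the sole one within 1 kb of a gene end in either stimulated list. Over whole lists, entries this close to a gene end made up 33.2% in stimulated Treg and 38.7% in stimulated Tconv, against 70.3% in unstimulated Treg and 72.2% in unstimulated Tconv. A further summit 2.74 kb after the start had 32.8-fold enrichment in stimulated Treg, and the one 2.70 kb after it in stimulated Tconv had 11.4-fold.

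Before the gene, stimulated Treg had a pair of summits 7.63 and 6.54 kb from the start with 24.8-fold and 26.9-fold enrichment. They shared 1 region, from 11634612 to 11636659. The stimulated Tconv region at this place, from 11634678 to 11636485, held a summit 7.59 kb before the start with 10.9-fold enrichment and none at the second position. Farther out, stimulated Treg had weak summits 13.0, 14.3 and 16.7 kb before the start, with 6.59-fold, 6.56-fold and 9.69-fold enrichment. The most distant pair of matching summits lay 19.4 kb before the start. Here the stimulated Treg summit had 7.14-fold enrichment and the stimulated Tconv summit 11.7-fold. In Treg this was the smaller summit of a region whose larger one, 12.0-fold and 19.9 kb before the Il2ra start, lay 19.7 kb from Rbm17 and so was counted there. That summit and another 22.4 kb before the start (8.03-fold) lay just outside the assignment to Il2ra. With them, the stretch of chromosome 2 that reaches 25 kb beyond either end of Il2ra held 22 entries in stimulated Treg, 1 in unstimulated Treg, 8 in stimulated Tconv, with 0 in unstimulated Tconv. Pfkfb3, whose body lies 88.7 kb from Il2ra, had 1 entry, in stimulated Treg with 8.89-fold enrichment.

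Deep in the gene, stimulated Treg had 4 summits for which stimulated Tconv had no region. The strongest, 22.8 kb after the start in the region from 11665227 to 11665975, had 31.9-fold enrichment and a −log10 p of 226.5, within the upper 8.55% of its list. A pair at 20.3 and 20.5 kb had 13.2-fold and 9.04-fold enrichment. After a gap of 25.9 kb, the last summit lay 48.7 kb from the start, near the far end of the gene, with 12.7-fold enrichment. It also lies inside the long non-coding RNA gene Gm39760, which overlaps that end of Il2ra. The median gap between neighbouring stimulated Treg summits was 1.82 kb.

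The 8 stimulated Tconv summits at Il2ra were a subset of the stimulated Treg ones in position. Each had a stimulated Treg summit within 4 to 43 bp, with a median of 19 bp. Over all entries, 4.81% of stimulated Tconv summits had no stimulated Treg summit within 250 bp. In the other direction, 12 of the 20 stimulated Treg summits at Il2ra had no stimulated Tconv summit within 250 bp, beside 52.5% of all stimulated Treg entries, so the count at Il2ra is near the background. These 12 had a median fold enrichment of 11.2 and the 8 matched ones of 28.8. Of the 12, 4 had a −log10 p under 38.1, where the stimulated Tconv list ended, and 8 had a higher one. For 5 of the 12 the entry still overlapped a stimulated Tconv region whose summit was elsewhere, among them the summits with 49.3-fold and 26.9-fold enrichment. Ranked by fold enrichment among the 8 matched summits of their own list, those at 8.95, 10.7 and 13.0 kb held the same places in both cell types and the other 5 did not. The summit at 2.74 kb ranked 4 in stimulated Treg and 6 in stimulated Tconv, that at the gene start 6 in stimulated Treg and 4 in stimulated Tconv, and the most distant one 8 in stimulated Treg and 5 in stimulated Tconv. Without replicate spread, neighbours in these orders cannot be said to differ.

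A missing summit is not always a missing call. The peak caller adds a letter to each summit of a peak with several, and the deposited lists skip letters. The lettered peaks at Il2ra kept 16 summits of at least 27 called in stimulated Treg, the larger summit counted for Rbm17 included, and 7 of at least 14 in stimulated Tconv. In the Tconv peak across 12.9 to 13.7 kb the letters show at least 6 summits, of which 2 are listed. The stimulated Treg summit with 49.3-fold enrichment lies within the span of that peak, and the position of its unlisted summits is not given.

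Il15ra, the alpha chain gene for IL-15, had no entry in any list. It lies on chromosome 2 from 11705172 to 11733985, 12.0 kb beyond the end of Il2ra, and reads in the same direction. A gene with no entry in any list was the usual case, at 70.9% of protein-coding genes. The nearest summit before its start was the last one inside Il2ra, 13.7 kb away. The nearest summit beyond its end lay 685.5 kb away. The dense binding of stimulated cells at Il2ra thus did not extend, at the limits of these lists, into the body of the neighbouring receptor gene. Counting a summit for every gene within 50 kb would give Il15ra 9 entries in stimulated Treg and 2 in stimulated Tconv, all of them inside Il2ra.

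Il2rb, the shared beta chain gene, had 2 entries in stimulated Treg, 0 in unstimulated Treg, 1 in stimulated Tconv, with 0 in unstimulated Tconv. It lies on chromosome 15 from 78479256 to 78511621. Its strand and starts were not available here, so its sites are placed by coordinate and not by distance from a start. An entry in both stimulated lists and neither unstimulated list was found at 6.29% of genes. The site in both lists lay 3.51 kb outside the gene, beyond its lower-coordinate end. There the stimulated Treg summit had 29.7-fold enrichment and a −log10 p of 219.5, within the upper 9.05% of its list. The stimulated Tconv summit, 5 bp away, had 9.19-fold enrichment and a −log10 p of 39.2, within the lowest entries of its list at 96.8% of the way down. The other stimulated Treg entry lay inside the gene, 15.9 kb from that end, in the region from 78493229 to 78496014, with 15.9-fold enrichment and a −log10 p of 103.6. Stimulated Tconv had no region there.

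A gene next to Il2rb, Tmprss6, which encodes a serine protease of iron metabolism, held binding of similar strength. Its body ends 10.6 kb from Il2rb, and its summits lay 29.0 to 31.0 kb from Il2rb. It had 4 entries in stimulated Treg with up to 33.9-fold enrichment, 1 in unstimulated Treg with 6.31-fold, 2 in stimulated Tconv with up to 21.4-fold, and 0 in unstimulated Tconv. Rac2, 47.5 kb from Il2rb, had 7 entries in stimulated Treg (up to 32.4-fold) and 3 in stimulated Tconv (up to 19.2-fold). Cyth4, 85.4 kb away, had 4 in stimulated Treg (up to 22.4-fold) and 1 in stimulated Tconv (15.7-fold). C1qtnf6, 11.7 kb away, had 1 in stimulated Treg (10.7-fold). No other gene within 100 kb of Il2rb had an entry. By the rule of the nearest gene these entries were not counted for Il2rb, and the lists do not say which gene a site serves.

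**Figure D2:**
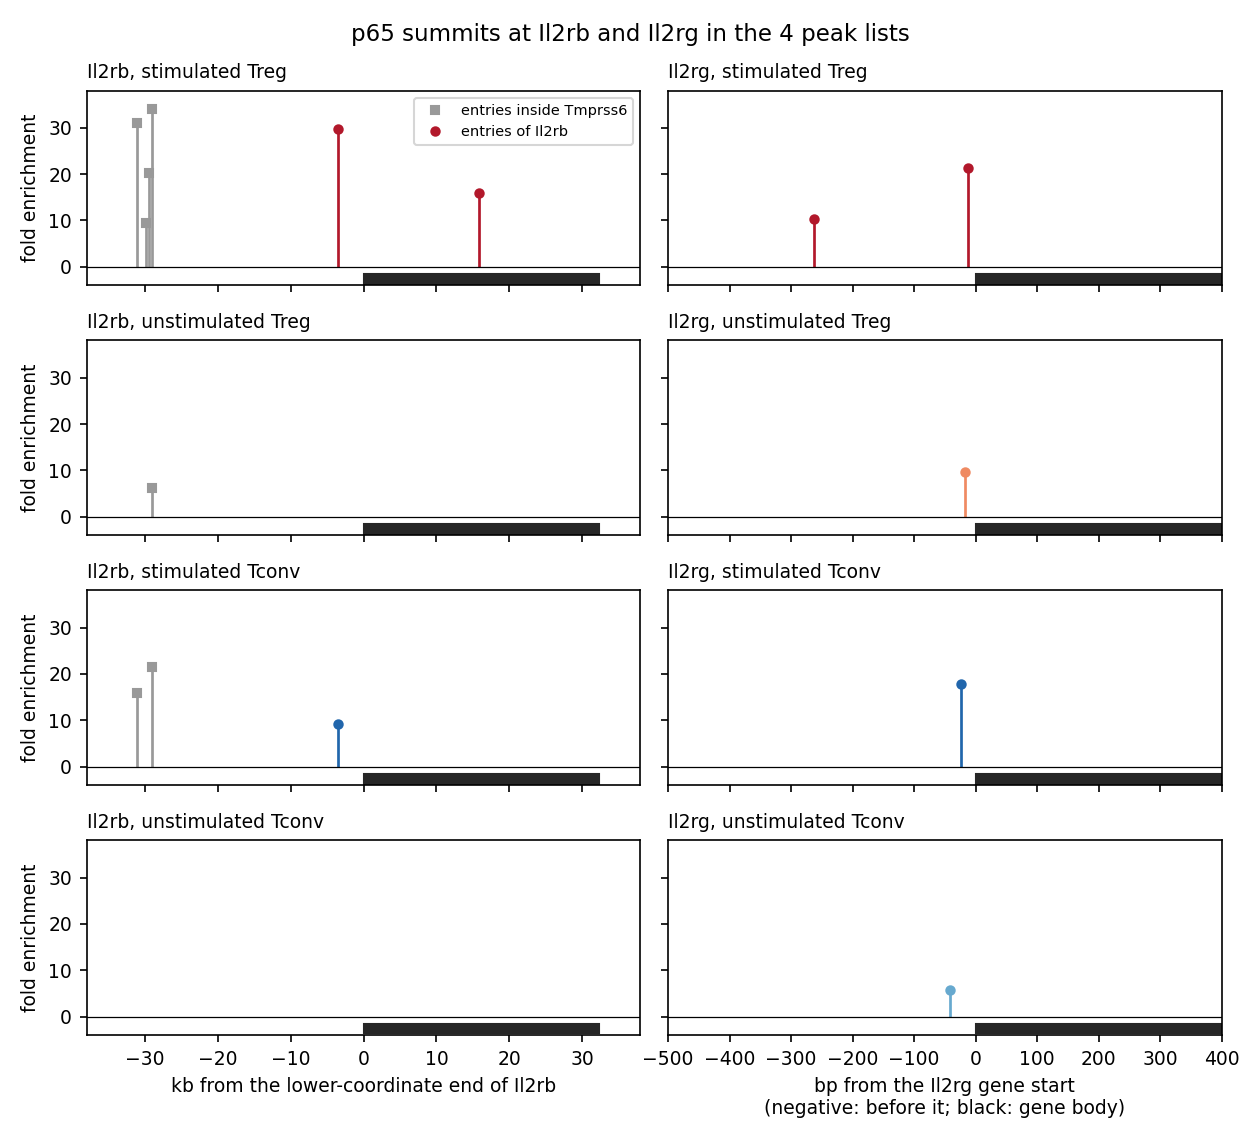
Fold enrichment (vertical axes, the authors' values) of each p65 summit at Il2rb (left, kb from its lower-coordinate end) and Il2rg (right, bp from its start), with 1 row per list. Black bars are gene bodies and grey squares are summits inside Tmprss6. Il2rb has summits in the stimulated lists alone, up to 29.7-fold, while Il2rg has a summit 12 to 41 bp before its start in all 4 lists.

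Il2rg, the common gamma chain gene, was the receptor gene bound in all 4 lists, as were 7.34% of protein-coding genes. It lies on chromosome X from 101264385 to 101268255 on the minus strand, a short body of 3.87 kb. Its strongest summit had 21.2-fold enrichment in stimulated Treg, 9.63-fold in unstimulated Treg, 17.9-fold in stimulated Tconv, with 5.72-fold in unstimulated Tconv. These summits lay 12 bp before the start in stimulated Treg, 17 bp in unstimulated Treg, 24 bp in stimulated Tconv and 41 bp in unstimulated Tconv, within the capitals of the window printed above. The 4 lists thus marked 1 place to within 29 bp. The −log10 p was 128.9 in stimulated Treg, 39.8 in unstimulated Treg, 99.7 in stimulated Tconv, with 15.8 in unstimulated Tconv. The unstimulated Tconv value is close to that list's limit of 13.3. Stimulated Treg had a further summit in the same region, 263 bp before the start, with 10.4-fold enrichment. Of its nearest neighbours, Gm614, 0.393 kb away, had no entry, Foxo4, whose body ends 3.51 kb from Il2rg, had 1 in stimulated Treg with 7.57-fold enrichment, and Med12, 5.84 kb away, had none.

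**Figure D3:**
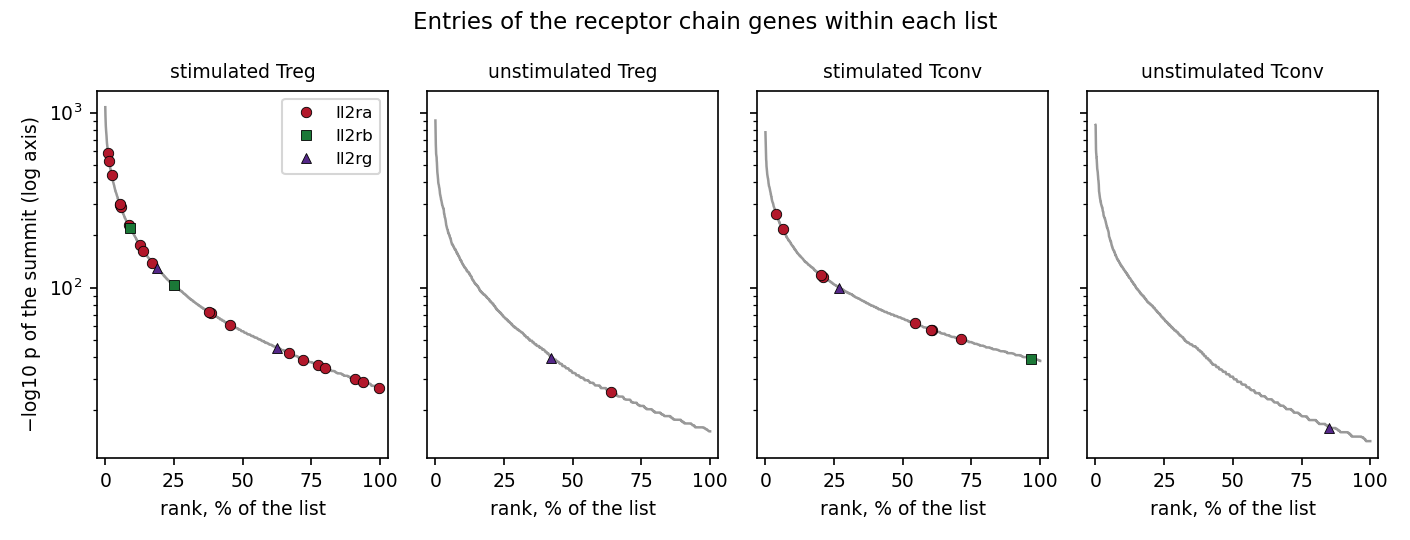
The −log10 p of each summit (vertical log axis, the authors' values) against its rank in its own list in percent from the strongest (horizontal axis), with 1 panel per list. Grey lines are all entries and symbols are those of Il2ra, Il2rb and Il2rg. In stimulated Treg, 7 of the 20 Il2ra summits lie in the upper 10% of the list, and in stimulated Tconv 2 of the 8 do.

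The first comparison of the design asked where binding appeared with stimulation. In Treg, overlapping entries were merged into regions, and 13 of the 15 stimulated ones at the receptor chain genes had no overlapping unstimulated region, beside 77.3% of all stimulated Treg regions. The 2 with a counterpart were the Il2ra region led by the summit at 8.95 kb and the Il2rg start. Both unstimulated Treg regions had a stimulated counterpart, where 21.6% of all unstimulated Treg regions had none. In Tconv, 7 of the 8 stimulated regions lacked an unstimulated counterpart, beside 67.4% of all stimulated Tconv regions, and the exception was again the Il2rg start. The single unstimulated Tconv region had a stimulated counterpart, where 36.3% of all had none. Taken gene by gene, Il2rb in Treg and both Il2ra and Il2rb in Tconv had entries in the stimulated list and none in the unstimulated one, as did 14.5% of all genes in Treg and 8.17% in Tconv.

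The comparison of cell types asked where Treg binding differed from Tconv binding. After stimulation, 7 of the 15 Treg regions at the receptor chain genes had no Tconv counterpart, 6 of them at Il2ra and 1 at Il2rb. This is close to the 49.3% of all stimulated Treg regions without one, and so is not a result about these genes. All 8 stimulated Tconv regions had a Treg counterpart, where 4.15% of all stimulated Tconv regions had none. Il2ra, Il2rb and Il2rg each had more entries in stimulated Treg than in stimulated Tconv, as did 16% of all genes. That share is 3499 genes, out of 5555 with any entry in stimulated Treg, so it was common among genes bound there. Without stimulation, 1 of the 2 Treg regions, that at Il2ra, had no Tconv counterpart, beside 20.6% of all unstimulated Treg regions. The single unstimulated Tconv region, at Il2rg, had a Treg counterpart, where 13.9% of all unstimulated Tconv regions had none.

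A list of 20 other genes of the IL-2 and common gamma chain pathway was read in the same way. Of these, 15 had an entry in stimulated Treg, 7 in unstimulated Treg, 14 in stimulated Tconv, with 3 in unstimulated Tconv. The median number of entries was 2.5 in stimulated Treg and 1 in stimulated Tconv, and 0 in unstimulated Treg and in unstimulated Tconv. Over all protein-coding genes these shares were 25.4% in stimulated Treg, 13.5% in unstimulated Treg, 16.6% in stimulated Tconv, with 12.6% in unstimulated Tconv. More entries in stimulated Treg than in stimulated Tconv, whose list is the shorter, were found at 13 of the 20 genes, beside 16% of all genes. Among genes with an entry in stimulated Treg, this held for 13 of 15 pathway genes and 3499 of 5555 genes in all. No entry in any list was found at 4 of the 20, beside 70.9% of all genes. Il2ra, with 20 entries in stimulated Treg, had more than any gene of the list, of which Jak1 had 12 and Stat5b 11.

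**Figure D4:**
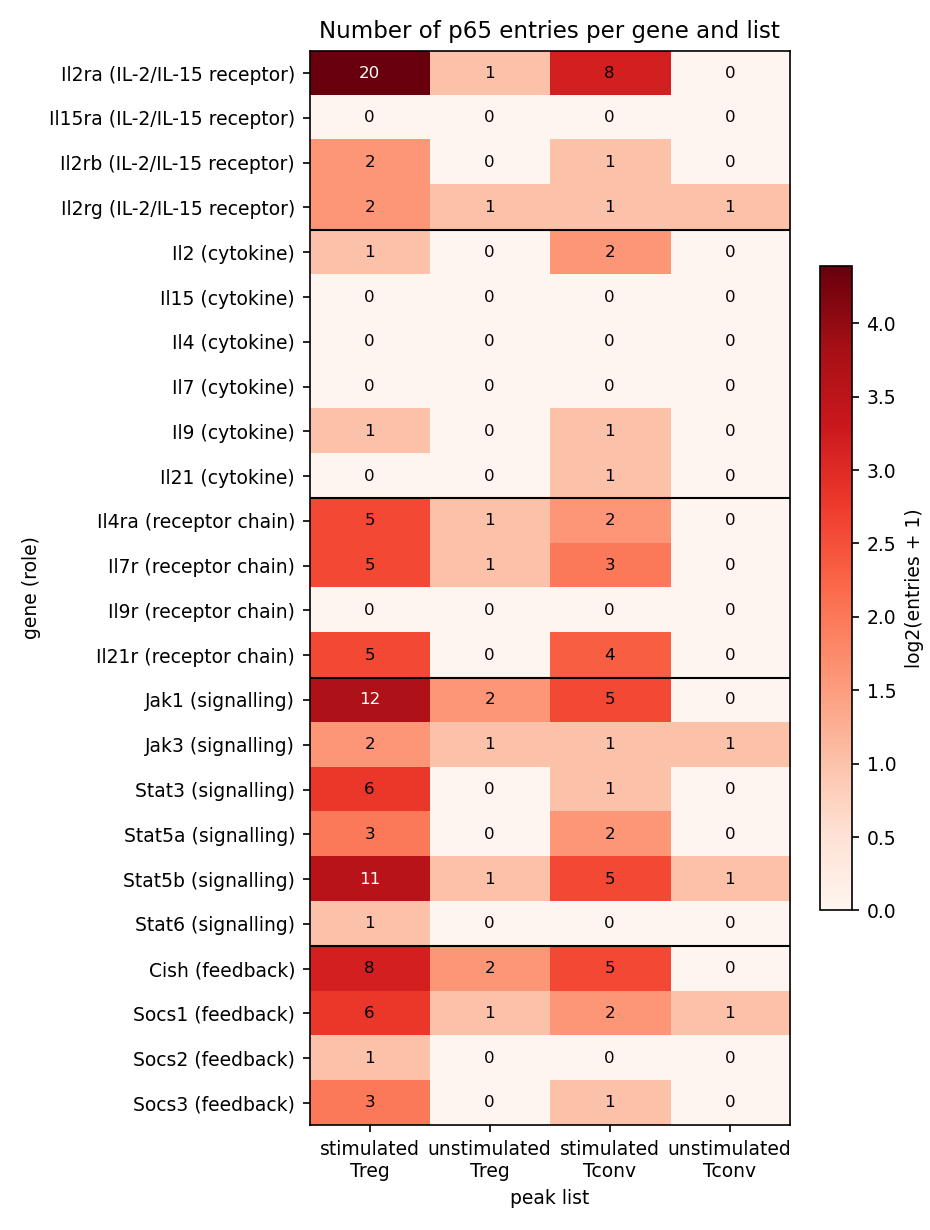
Number of p65 entries for each receptor chain gene and pathway gene (rows, grouped by role) in each list (columns), with the number printed in each cell and shading by log2(entries + 1). Il2ra has the highest count, 20 in stimulated Treg, and Il15, Il4, Il7, Il9r and Il15ra have 0 throughout.

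The cytokine genes had few entries. Il2, the gene for the ligand itself, had 1 entry in stimulated Treg with 8.07-fold enrichment and 2 in stimulated Tconv with up to 10.0-fold. Il21 had 0 in stimulated Treg and 1 in stimulated Tconv (8.57-fold). Il9 had 1 in each, with 13.3-fold enrichment in stimulated Treg and 19.1-fold in stimulated Tconv. Il2 and Il21 were the 2 genes of the list with fewer entries in stimulated Treg than in stimulated Tconv, as were 1.04% of all genes. Il15, Il4 and Il7 had no entry.

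The receptor chains that pair with the common gamma chain were bound after stimulation, apart from Il9r, which had no entry. Il4ra, the IL-4 receptor chain gene, had 5 entries in stimulated Treg (up to 55.7-fold), 1 in unstimulated Treg (5.96-fold), 2 in stimulated Tconv (up to 36.2-fold) and 0 in unstimulated Tconv. Il7r had 5 in stimulated Treg (up to 26.8-fold), 1 in unstimulated Treg (5.97-fold), 3 in stimulated Tconv (up to 19.0-fold) and 0 in unstimulated Tconv. Il4ra and Il7r thus had an entry in the same 3 lists as Il2ra. Il21r had 5 in stimulated Treg (up to 70.1-fold) and 4 in stimulated Tconv (up to 43.2-fold), with none in the unstimulated lists.

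Each of the 6 signalling genes had more entries in stimulated Treg than in stimulated Tconv. Of the 5555 genes with an entry in stimulated Treg, as all 6 had, 3499 did so (16% of all genes). Jak1, which encodes a kinase of the receptor complex, had 12 in stimulated Treg and 5 in stimulated Tconv. Jak3, which encodes the kinase that binds the common gamma chain, had 2 in stimulated Treg and 1 in each other list, the same counts as Il2rg. Stat5b, which encodes a form of STAT5, had 11 in stimulated Treg (up to 50.5-fold) and 5 in stimulated Tconv (up to 40.2-fold), and 1 in each unstimulated list. Of the 4 feedback genes, Cish, a STAT5 target that dampens IL-2 signalling, had 8 entries in stimulated Treg with up to 93.3-fold enrichment and 5 in stimulated Tconv with up to 40.7-fold. It had 2 in unstimulated Treg and 0 in unstimulated Tconv. Socs1 had 6 in stimulated Treg, 2 in stimulated Tconv and 1 in each unstimulated list.

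Genes most like each receptor gene were found by the smallest summed difference in entry number over the 4 lists, with ties decided by the strongest fold enrichment. For Il2ra the nearest was Nsmce2, a DNA repair gene, which had 19 entries in stimulated Treg, 1 in unstimulated Treg, 6 in stimulated Tconv, with 0 in unstimulated Tconv, a summed difference of 3. Prkcq, which encodes the kinase that links the T cell receptor to NF-kB, had 21 in stimulated Treg, 1 in unstimulated Treg, 11 in stimulated Tconv, with 0 in unstimulated Tconv. Cd247, which encodes the zeta chain of the T cell receptor complex, had 17 in stimulated Treg, 1 in unstimulated Treg, 9 in stimulated Tconv, with 0 in unstimulated Tconv. Prkcq and Cd247 each differed from Il2ra by 4 in sum, as did Atxn7l1, and Rad51b differed by 5. Counts as low as those of Il2rb and Il2rg are shared by many genes. The same counts as Il2rb were found at 201 further genes, the nearest in strength being Eloa, Disp1 and Gins1, and those of Il2rg at 152, led by Fchsd2, Dennd4b and Chmp4b. Likeness over 4 lists describes these counts and nothing else.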

How the data were processed

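The data are p65 ChIP-seq peak lists of 4 groups, each made by the authors from 2 libraries. Per the submitters' processing notes, MACS2 2.1.1.20160309, BWA 0.7.15-r1140 and Trim Galore 0.4.1 were used with mm10. The files are named as pooled peaks after blacklist removal and a conservative reproducibility filter (IDR). The deposited lists give each summit's fold enrichment, a ratio over local background, its −log10 p and −log10 q, and a score. Per the values, the deposited score is 10 times the −log10 p (within 1 unit). The use of the input libraries is not stated in the sources used here. Deeper libraries, or libraries that agree better, can give longer lists, which was not tested here.

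Summits were assigned to RefSeq gene bodies (GRCm38.p6), inside counting as 0 and ties going to the nearer gene end. Overlapping entries were merged into regions, and a counterpart overlapped by at least 1 bp. Exons and introns were not analysed here. Peak sequences were not used here, and motifs were read in promoter windows alone. The assignment and overlap steps were tested on simulated data with known answers. No test was run, since each group has 1 list. The genes, the pathway list, the rule for named genes and the alternatives were chosen with earlier results of these data known. Named were the 4 genes, pathway genes by role, and the 5 genes most like Il2ra and 3 most like Il2rb and Il2rg. Protein-coding neighbours within 100 kb were named where they had an entry, and those without an entry only in part. The work used Python 3.11.15 with pandas 2.3.3.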

Additional observations from a re-analysis of the deposited data

How the results depend on the processing

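Of 64 settings over 12 counts for the receptor chain genes together, 47 stayed within 1.5 times the reported count, and the cause of the others was not tested unless the setting itself removes or adds entries. Counting every gene within 50 kb gave 43 entries in stimulated Treg (24 as reported), 5 in unstimulated Treg (2) and 2 in unstimulated Tconv (1), since summits nearer to other genes were added and, for Il15ra, 9 stimulated Treg summits of Il2ra were counted again. Merging entries gave 15 in stimulated Treg. Reading fewer entries lowered counts by construction. With equal list lengths of 3132 entries, stimulated Treg kept 12 and stimulated Tconv 5 (10 as reported). The upper 50% of each list left 1 in unstimulated Treg, 5 in stimulated Tconv, with 0 in unstimulated Tconv, and the common limit of 38.1 left 1 in unstimulated Treg and 0 in unstimulated Tconv. For unstimulated Tconv, the common limit and the upper 50% left no region to compare. Distances of 10 and 200 kb changed none of these totals by over 1.5 times. At equal lengths, stimulated regions without an unstimulated counterpart numbered 6 of 8 in Treg (13 of 15) and 3 of 4 in Tconv (7 of 8), and 4 of 4 in Tconv in the upper 50%. Stimulated Treg regions without a Tconv counterpart numbered 4 of 8 (7 of 15). A reciprocal overlap of 50% left 1 unstimulated Treg region without a stimulated counterpart and 1 stimulated Tconv region without a Treg one, where there had been 0 of each. For single genes, 24 of 112 such counts moved by over 1.5 times.

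No paired analysis was possible because each list pools both libraries of a group, and leaving out a replicate was not possible for the same reason. Regions at 1 gene share a locus and are not independent.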
